A study of Homo sapiens with 6 samples.

Results

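SR-related nuclear speckle proteins carry arginine and serine rich or similar low complexity regions without being classical SR proteins, and many of them gather in nuclear speckles, the compartments where splicing factors are stored. They bridge SR proteins and the spliceosome, sit at the edge of the exon junction complex, or link splicing to the cap and to transcription. Several of these genes are known to control their own transcripts through poison exons, which bring in a stop codon, or through detained introns, which keep the RNA in the nucleus.

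The 10 genes described here are SRRM1, SRRM2, SRRT, SRSF10, PNN, ACIN1, RNPS1, ARGLU1, BCLAF1 and THRAP3, and the members are their retained introns and skipped exons with a mean of at least 20 junction reads per library. That rule kept 43 of 21158 introns and 246 of 153168 exon events, on 195 exons. All libraries came from the human embryonic kidney line HEK293A-TOA, grown without inhibitor. In siNT, 3 biological replicates received a non-target siRNA, and in siSFSWAP 3 received a mix of 2 siRNAs against SFSWAP, given by the labels at 40 nM. Cells were split on the next day and polyadenylated RNA was collected 5 days after transfection. SFSWAP is an SR-related splicing regulator, and the study sequenced these libraries to see which introns and exons depend on it.

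The value of each event is inclusion, the percent of inclusion among its own inclusion and skipping junction reads, each divided by an effective length. Inclusion reads keep the intron or exon, and skipping reads join across it. Of the reads that join across, only the skipping junction of that event is counted, so skipping through other acceptors or donors is left out. Reads at a splice site that several forms share can count as inclusion of each form. Inclusion is therefore not a share of all RNA of the gene. Where a listed intron ends inside an exon, reads of that exon can count as its inclusion. Changes are siSFSWAP minus siNT in percentage points. An event was tested where it had a mean of at least 20 reads and both forms reached 5 reads in all libraries summed. Calls needed an adjusted p no higher than 0.05 and a change of 20 points or more. The tables held 2767079 to 7465949 intron junction reads and 19515010 to 55274283 exon junction reads per library. The tables do not name their groups: which is siNT was inferred from how the paper defines the difference in inclusion. The check on that assignment is SFSWAP itself, with spliced reads of 82.1 ± 3.78 CPM (counts scaled to library size) in siNT against 30.2 ± 7.70 CPM in siSFSWAP (SD, n = 3). Of 6 markers listed for the line, VIM, KRT8 and KRT18 were read in every library, KRT8 with a log2 change of -0.36 (adjusted p = 0.0148). The other 3, PAX2, NEFL and NEFM, had a count of 0 in all 6 libraries. The markers of 4 of 6 other cell types had a count of 0 as well, and COL1A1 and GFAP had at most 18 reads. A gene with no listed exon event also gets a count of 0, so these counts do not show that a gene was silent.

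The siNT library a stood apart from the other controls. Over all tested introns with 20 to 80% siNT inclusion, its median absolute difference was 10.2 and 13.1 points to siNT b and c, but 6.95 to 7.49 points to the siSFSWAP libraries. It was also the deepest library. Results below are given with and without it where it moves them.

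The sequences that the results turn on are these, from hg38, on the strand of each gene. The SRRT sequence is exon 4 of 20 of the canonical transcript (chr7:100881659-100881805, plus strand), and its capitals mark the 26-nt form that starts at an internal AG. The SRRM1 sequence covers all listed forms of exon 11 of 17 (chr1:24661280-24661405, plus strand), and its capitals mark the 87-nt form with the most reads. The SRSF10 sequence runs from exon 5 of 6 through intron 5 to a 5′ splice site inside the coding part of the last exon (chr1:23971338-23971626, minus strand), and its capitals mark the intron. The SRRM2 sequence is a 124-nt intron within the coding region (chr16:2770228-2770351, plus strand), found in 1 annotated transcript, with its first and last 2 bases in capitals. The ARGLU1 sequence, all in capitals, is the 58-nt exon inside detained intron 2 of 3 (chr13:106557559-106557616, minus strand).
SRRT: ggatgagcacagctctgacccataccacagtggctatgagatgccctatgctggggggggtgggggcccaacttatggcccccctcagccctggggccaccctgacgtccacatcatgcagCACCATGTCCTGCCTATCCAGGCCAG
SRRM1: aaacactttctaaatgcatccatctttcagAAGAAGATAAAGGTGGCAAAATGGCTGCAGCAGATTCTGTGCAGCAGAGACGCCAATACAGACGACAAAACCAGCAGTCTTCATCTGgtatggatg
SRSF10: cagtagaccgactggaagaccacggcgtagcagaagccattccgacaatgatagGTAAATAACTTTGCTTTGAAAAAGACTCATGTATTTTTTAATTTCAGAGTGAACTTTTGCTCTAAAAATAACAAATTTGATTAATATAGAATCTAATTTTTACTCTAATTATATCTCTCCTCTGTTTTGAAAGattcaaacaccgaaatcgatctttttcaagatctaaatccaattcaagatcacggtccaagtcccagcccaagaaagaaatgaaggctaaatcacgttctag
SRRM2: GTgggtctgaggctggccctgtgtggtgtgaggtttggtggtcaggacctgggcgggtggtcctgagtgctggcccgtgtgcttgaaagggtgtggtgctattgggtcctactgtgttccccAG
ARGLU1: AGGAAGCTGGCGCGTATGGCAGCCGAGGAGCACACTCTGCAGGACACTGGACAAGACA

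Most members kept their inclusion within a few points. Of the 43 introns 34 were tested, and 9 had under 5 skipping reads. Of the 246 exon events 136 on 117 exons were tested, and of the other 110, 91 had under 5 skipping reads and 19 under 5 inclusion reads. The change was under 5 points in 27 introns and in 105 exon events. RNPS1 had no intron in the table, and every other gene had tested events in both. Events described below that were not called, of smallest p in a gene and table, with most intron reads or at 20 to 80% inclusion were chosen after their values were seen. Just inside the read limit stood an ACIN1 intron with a mean of 22.2 reads and a THRAP3 exon form with 20.3, and just outside a SRRM1 intron with 18.8 and a RNPS1 exon form with 13.2.

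No member intron was called. By the quasi-binomial test 3 of the 34 had an unadjusted p under 0.05, 2 lower and 1 higher, and limma on log2 odds of inclusion called 0 as well, with 4 at an unadjusted p under 0.05. Among all 10155 introns tested, 1.61% were called lower and 0.148% higher. By adjusted p alone 1 member intron was lower and 0 were higher, against 2.86% and 0.364% of all introns. Limma on log2 odds gave 0 lower, as did leaving out siNT b or any 1 siSFSWAP library, and 2 were lower without siNT a. The median change was 0.117 points over the members and -0.515 points over all introns. Mean inclusion was lower in siSFSWAP for 16 members and higher for 18.

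Among the exon events 4 in 3 genes were called, 2 lower and 2 higher. All 48100 exon events gave 0.655% called lower and 1.44% called higher, and the members 1.47% in each direction. By adjusted p alone 7 member events were lower and 5 higher, where the background was 2.17% and 3.25%. Leaving out 1 library moved these counts to between 0 (without siSFSWAP c) and 12 lower (without siNT a), and to between 1 (without siSFSWAP a) and 9 higher (without siNT a), and limma on log2 odds gave 0 in each direction. The 2 higher calls were both forms of SRRT exon 4, and the lower calls were forms in SRRM1 and SRSF10. The median change was -0.116 points over the member events and 0.295 points over all events. Limma on log2 odds, which does not weight libraries by their reads, called 0 of the 136, with 15 at an unadjusted p under 0.05 against 28 by the quasi-binomial test.

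**Figure D1:**
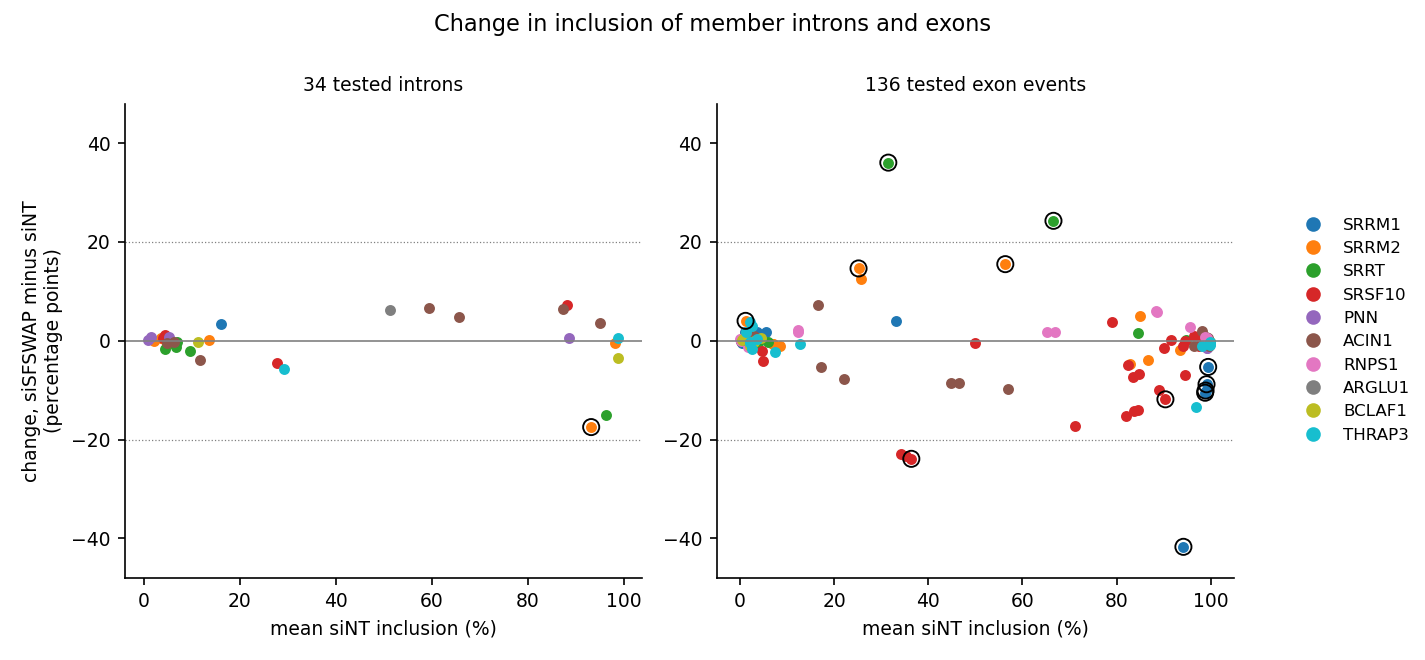
Change in inclusion (siSFSWAP minus siNT, percentage points) against mean siNT inclusion (%) for the 34 tested introns and 136 tested exon events of the 10 genes, 1 point each and 1 colour per gene, with dotted lines at 20 points and rings on events past adjusted p. Most points lie near 0, and the 4 called exon events are those beyond the dotted lines in SRRT, SRRM1 and SRSF10 that carry a ring.

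SRRM1 and SRRM2 are speckle matrix proteins, the first a splicing coactivator that bridges bound SR proteins and the second a large scaffold of speckles. In SRRM1 (ENSG00000133226.18) the called event was the 93-nt form of exon 11 (chr1:24661313-24661405), which uses an acceptor 3 nt into the 87-nt exon and a donor beyond it. Its inclusion was 92.1, 96.8 and 93.7% in siNT a, b and c. In siSFSWAP a, b and c it was 77.4, 44.9 and 35.1%. All siSFSWAP libraries lay below all siNT libraries, with siSFSWAP a the nearest. The mean fell from 94.2 ± 2.37% to 52.5 ± 22.1% (SD, n = 3), by 41.7 points (adjusted p = 0.00154). Without siNT a the change was -42.8 points (adjusted p = 0.000263), and without siSFSWAP c it was -33.0 points and no longer passed (adjusted p = 0.056). Limma on log2 odds gave 0.0739.

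That 93-nt form of SRRM1 is a minor one, with a mean of 61.7 reads, and it is not in the annotation used. Its acceptor is also that of an annotated 84-nt form, so reads of the 84-nt form can count as its inclusion. The inclusion values therefore need not show use of the 93-nt form. The 87-nt form, exon 11 itself, was chosen for description after its values were seen. It was included at 99.3, 99.7 and 99.4% in siNT a, b and c and at 97.4, 94.0 and 91.0% in siSFSWAP a, b and c. Its groups did not overlap either, and the mean fell by 5.30 points, to 94.2 ± 3.20% (adjusted p = 0.003). In all, 5 forms of 84 to 117 nt share 1 skipping junction, and all 5 passed adjusted p with changes of -5.30 to -41.7 points. None of the 5 passed without siSFSWAP c (adjusted p from 0.056 to 0.0733) or by limma on log2 odds (0.0739 to 0.0769). The forms are therefore not separate measurements of skipping. Reads of that junction numbered 5, 1 and 2 in the siNT libraries against 8, 12 and 20 in the siSFSWAP libraries. Scaled to the total of the exon table this was 0.0764 ± 0.0293 CPM in siNT and 0.588 ± 0.326 in siSFSWAP. Each siSFSWAP library had a higher rate of skipping reads than any siNT library, and the counts behind this are small.

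Other SRRM1 exons moved little. A 42-nt exon in 7 annotated transcripts (chr1:24663183-24663224) was included at 35.7, 32.6 and 31.3% in siNT a, b and c and at 39.1, 39.4 and 33.2% in siSFSWAP. The groups overlapped (adjusted p = 0.573). A 130-nt exon inside intron 3 (chr1:24647079-24647208), named after its values were seen because it holds an in-frame TGA from its base 4, was at 5.54 ± 0.17% in siNT and 7.25 ± 0.62% in siSFSWAP (adjusted p = 0.462). Intron 3 as a whole, 2069 nt and the SRRM1 intron with the most reads, was at 3.72 ± 0.94% and 4.27 ± 1.72% (adjusted p = 0.99). Its first 289 nt, up to the 130-nt exon, were included at 20.8, 13.3 and 14.3% in siNT and at 20.8, 22.2 and 15.6% in siSFSWAP (adjusted p = 0.915). The reads that remove intron 3 whole are left out of these values.

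In SRRM2 (ENSG00000167978.17) 1 intron and 3 exon events passed adjusted p without reaching 20 points. The 124-nt intron printed above is the end of the longer intron that follows exon 12. Reads of that longer intron left unspliced can count as inclusion of the 124-nt intron. Reads that remove the longer intron whole are left out, 588, 442 and 334 for siNT against 345, 235 and 257 for siSFSWAP. Inclusion therefore does not give the share of SRRM2 RNA that keeps this stretch. Inclusion of the 124-nt intron was 88.8, 93.0 and 97.9% for siNT a, b and c, against 74.1, 79.3 and 73.8% for the siSFSWAP libraries in that order. The groups did not overlap, and siSFSWAP was lower by a change of -17.5 points (adjusted p = 0.0155). Without siNT a this was -19.7 points (adjusted p = 3.7e-07). Without siNT b or without any 1 siSFSWAP library it did not pass, with adjusted p from 0.0598 to 0.169, and limma on log2 odds gave 0.162. The exon that ends at its 5′ splice site, 261 nt with an in-frame TGA from base 245 (chr16:2769967-2770227), was included at 1.17 ± 1.04% in siNT and 5.20 ± 0.15% in siSFSWAP (adjusted p = 0.00239), which did not pass by limma on log2 odds (0.125). It was named after its values were seen. Both events rest on splicing at the same donor, so they are not independent.

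Exon 2 of 15 of SRRM2, 273 nt with the start codon (chr16:2756334-2756606), was included more in siSFSWAP when paired with the upstream exon end that had most reads. Inclusion was 63.8, 54.2 and 51.1% in siNT a, b and c against 72.2, 73.3 and 70.1% in siSFSWAP a, b and c. Every siSFSWAP library was above every siNT library, and siNT a lay nearest to them. The mean rose by 15.5 points (adjusted p = 0.00155), by 19.2 points without siNT a (adjusted p = 6.53e-10), and did not pass without siSFSWAP a (adjusted p = 0.0587) or by limma on log2 odds (0.42). A 122-nt form with the same acceptor was at 33.1, 23.3 and 19.1% in siNT and 39.0, 41.6 and 38.9% in siSFSWAP, a rise of 14.6 points (adjusted p = 0.0141). It passed without siNT a (18.6 points, adjusted p = 4.61e-08), and without any 1 of the other libraries it did not (adjusted p from 0.0546 to 0.125). Limma on log2 odds gave 0.417. Both forms share 1 skipping junction, whose level was 8.61, 11.7 and 13.6 CPM of the exon table in siNT and 5.88, 6.15 and 7.43 in siSFSWAP. From a second upstream exon end, 8 nt away, the 273-nt exon was at 84.9 ± 3.35% and 89.8 ± 1.70% (adjusted p = 0.249).

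Among the remaining SRRM2 introns were the 4 member introns with the most reads. Intron 6, 92 nt (chr16:2759048-2759139) with a mean of 1592 reads, was retained at 6.26, 5.67 and 4.82% in siNT and at 4.88, 4.84 and 5.83% in siSFSWAP (adjusted p = 0.637). Apart from the 124-nt intron, the 6 other tested SRRM2 introns changed by -0.432 to 0.472 points, and 5 of them were retained under 15% in each library. Exon 6, 63 nt, is a case where siNT a differed from the other controls, at 98.6% against 92.7 and 89.4% in siNT b and c. The siSFSWAP libraries were at 94.3, 92.4 and 88.6%, overlapping the controls (adjusted p = 0.322).

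SRRT, also called ARS2, ties the cap-binding complex to the fate of the transcript. Exon 4 of SRRT (ENSG00000087087.20), 147 nt and coding throughout, was included at 81.3, 61.6 and 56.9% in siNT a, b and c. In siSFSWAP a, b and c it was included at 96.4, 87.7 and 88.5%. The lowest siSFSWAP library was above the highest siNT library, siNT a. The mean rose from 66.6 ± 13.0% to 90.9 ± 4.83% (SD, n = 3), by 24.3 points (adjusted p = 0.00318). Without siNT a the rise was 31.7 points (adjusted p = 9.26e-10). It did not pass without siNT b (adjusted p = 0.0614), without siSFSWAP a (0.117) or by limma on log2 odds (0.146), and without siNT c it fell short of 20 points, at 19.4.

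The 26-nt form of SRRT exon 4 starts at an internal acceptor and keeps the same donor (chr7:100881780-100881805), and unlike the full exon its length is not a multiple of 3. Reads of the full exon at the shared donor can count as inclusion of the short form. Its values therefore need not show use of the internal acceptor. The short form was included at 51.3, 27.8 and 15.4% in siNT a, b and c and at 84.4, 59.1 and 59.2% in siSFSWAP a, b and c. The groups did not overlap and the rise was 36.1 points (adjusted p = 0.0207), on a mean of 83.7 reads. Without siNT a it was 46.0 points (adjusted p = 9.76e-07), and without any other library it did not pass (adjusted p from 0.0688 to 0.258). The 2 forms share their skipping junction, with 64, 78 and 74 reads in siNT a, b and c against 6, 17 and 18 in siSFSWAP a, b and c. Scaled likewise this was 2.68 ± 1.32 CPM in siNT and 0.623 ± 0.378 in siSFSWAP, and siNT a, at 1.16, was again the control nearest to the siSFSWAP libraries. Inclusion reads of the 147-nt form were 10.1, 10.7 and 9.37 CPM in siNT and 10.2, 12.5 and 12.4 in siSFSWAP.

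**Figure D2:**
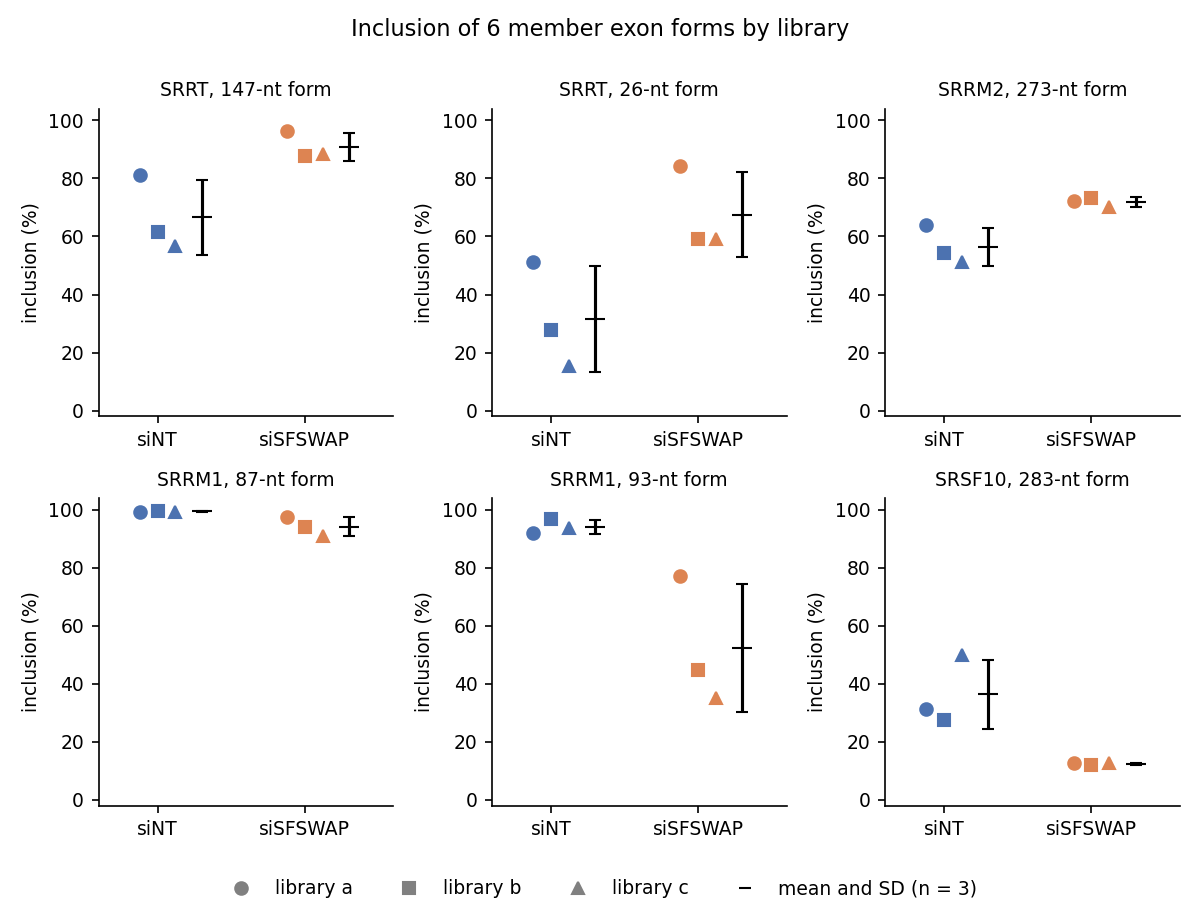
Inclusion (%) of 6 exon forms of SRRT, SRRM2, SRRM1 and SRSF10 in each siNT and siSFSWAP library, with the mean and SD of 3 libraries at the side. Both SRRT forms and SRRM2 exon 2 were higher in every siSFSWAP library, while the SRRM1 and SRSF10 forms were lower in every one, and the 87-nt form of SRRM1 exon 11 stayed above 90% throughout.

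**Figure D3:**
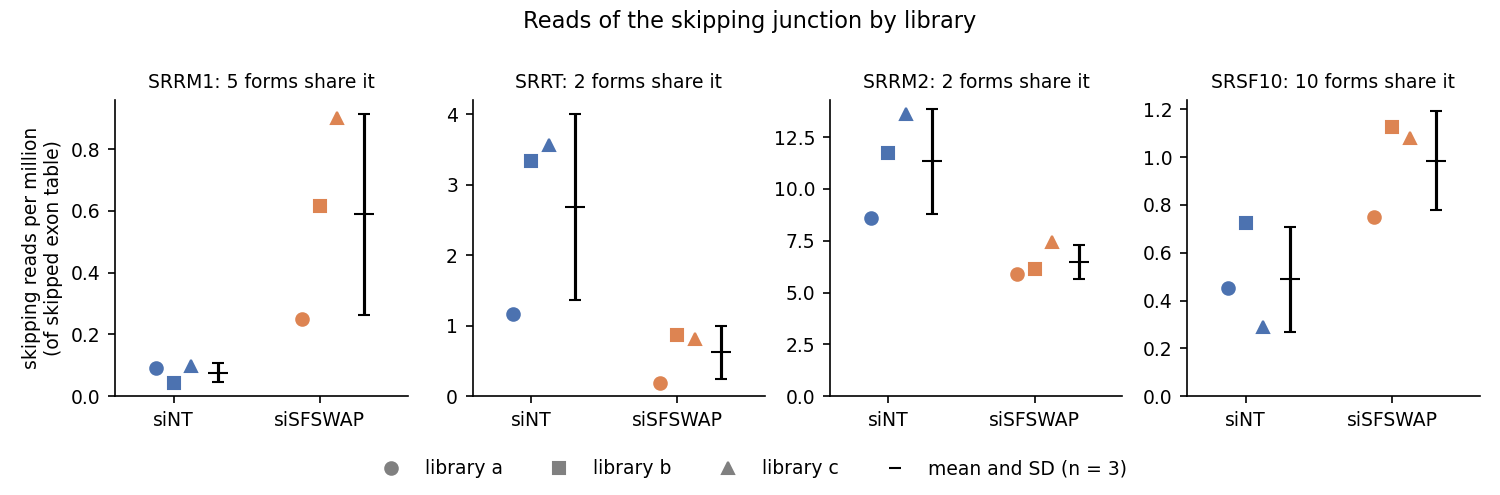
Reads of 4 skipping junctions (CPM of the exon table) by library, with the mean and SD of 3 libraries. Each panel gives how many listed forms share the junction, and in none of the 4 do the groups overlap.

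Apart from a 134-nt form, the tested SRRT introns were retained under 12% in each library. All 5 tested introns had a lower mean in siSFSWAP and 0 passed the quasi-binomial test, with 1 at an unadjusted p under 0.05. Intron 4, 247 nt and next to exon 4, was at 4.42 ± 1.14% in siNT and 2.72 ± 0.75% in siSFSWAP (adjusted p = 0.507). Intron 18, 113 nt (chr7:100888144-100888256) with the most reads in the gene, was at 4.68, 8.60 and 6.73% in siNT and 4.79, 6.26 and 5.32% in siSFSWAP (adjusted p = 0.793). Its 134-nt form ends at a later acceptor inside exon 19 (chr7:100888144-100888277), so reads of exon 19 can count as its inclusion. In siNT a, b and c this form was included at 91.1, 97.8 and 100%. The siSFSWAP libraries were at 76.5, 93.4 and 73.7%. These groups overlapped through siSFSWAP b, and the change of -15.1 points did not pass (adjusted p = 0.151). Without siNT a it was -17.7 points and passed (adjusted p = 0.00281).

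SRSF10 is an SR-like protein that acts as a splicing repressor when dephosphorylated and as a regulator of many cassette exons. In SRSF10 (ENSG00000188529.15) the called event was a 283-nt unit (chr1:23971338-23971620) that spans exon 5, intron 5 and part of the last exon, with an acceptor 6 nt into exon 5. The junction reads of this unit and of its longer forms lie at their ends, so they do not test whether intron 5 is kept inside. The 283-nt unit was included at 31.5, 27.7 and 50% in siNT a, b and c and at 12.7, 12 and 12.7% in siSFSWAP a, b and c. The siNT libraries were spread and all above the siSFSWAP ones. It fell by 23.9 points (adjusted p = 0.034), which rested on a mean of 31.0 reads. It passed without siNT a (-26.3 points, adjusted p = 0.0273), but without any other library the adjusted p was 0.0676 to 0.127, and limma on log2 odds gave 0.156.

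In SRSF10, 10 listed forms of 48 to 324 nt share the skipping junction from the end of exon 4 to the farther of the listed downstream acceptors, and all 10 had a lower mean in siSFSWAP. The shared reads were 25, 17 and 6 in siNT a, b and c against 24, 22 and 24 in siSFSWAP. Scaled to the exon table they were 0.452, 0.725 and 0.288 CPM in siNT and 0.750, 1.13 and 1.08 in siSFSWAP, so all siSFSWAP libraries were above all siNT libraries. The 289-nt form passed adjusted p, from 90.4 ± 3.29% to 78.5 ± 4.17% (adjusted p = 0.0343). It did not pass by limma on log2 odds (adjusted p = 0.276) or without any 1 library other than siNT a (0.0596 to 0.176). Exon 5 itself, 54 nt, was at 94.5 ± 2.26% and 87.7 ± 2.78% (adjusted p = 0.0521). Against the nearer downstream acceptor the same exon was at 98.3 ± 0.94% and 97.5 ± 1.71% (adjusted p = 0.907). The 286-nt form of the unit was at 68.8, 64.2 and 80.3% in siNT and 65.7, 42.1 and 53.8% in siSFSWAP, with overlap (adjusted p = 0.232). The 324-nt form was at 27.5, 26.1 and 52.0% against 12.7, 10.2 and 12.7%, with no overlap (adjusted p = 0.0509). The 102-nt part of the last exon was at 51.2, 51.4 and 47.4% in siNT and 50.4, 50.7 and 47.5% in siSFSWAP (adjusted p = 0.931).

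The SRSF10 introns did not pass. Intron 4 in its 223-nt form, the one with most reads, was at 3.20, 3.47 and 5.16% in siNT and 5.51, 4.69 and 3.37% in siSFSWAP (adjusted p = 0.671). The 226-nt form of that intron, which ends at an acceptor 3 nt further on, was at 24.9, 23.9 and 34.4% against 25.4, 28.8 and 15.2% (adjusted p = 0.776). Intron 5 was at 3.97, 4.22 and 4.88% against 7, 6.01 and 3.83% (adjusted p = 0.466). In each of these introns the groups overlapped. The 226-nt form and a 229-nt form end inside exon 5, so reads of exon 5 can count as their inclusion. The 229-nt form was at 87.2, 90.2 and 87.5% against 93.2, 93.3 and 100%, with no overlap (adjusted p = 0.635).

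ACIN1, RNPS1 and PNN belong to the ASAP and PSAP complexes at the edge of the exon junction complex, where RNPS1 and SAP18 pair with ACIN1 or PNN. The smallest adjusted p of their 11 tested introns was 0.417 and that of their 40 tested exon events 0.0762. In ACIN1 (ENSG00000100813.15) the listed introns with intermediate inclusion were 133 nt (chr14:23064222-23064354) and 240 nt (chr14:23071187-23071426). The first ends inside exon 12, past the acceptor of annotated intron 11. Reads of exon 12 can therefore count as its inclusion, which does not show that an intron is kept. The first was included at 66.1, 66.2 and 64.8% in siNT and 64.7, 74.3 and 72.2% in siSFSWAP, with overlap (adjusted p = 0.717). The second was at 59.6, 59.1 and 59.4% in siNT and 64.0, 63.3 and 71.0% in siSFSWAP, with no overlap, and the change of 6.73 points did not pass (adjusted p = 0.55). The 97-nt form of the first, annotated intron 11, was at 9.31, 13.7 and 11.7% against 9.79, 5.71 and 7.76% (adjusted p = 0.417). Intron 17, 113 nt with the most ACIN1 intron reads, was at 4.72 ± 0.19% and 4.18 ± 0.93% (adjusted p = 0.821).

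A 62-nt exon of ACIN1 (chr14:23071125-23071186), which ends where the 240-nt intron begins on the genome, had the smallest p of the gene. Skipped to the far upstream exon it was included at 17.8, 23.6 and 25.1% in siNT a, b and c and at 8.22, 18.3 and 16.8% in siSFSWAP a, b and c. The groups overlapped between siNT a and siSFSWAP b, and the change of -7.73 points did not pass (adjusted p = 0.0762). Without siNT a it was -9.92 points and passed (adjusted p = 0.00216). Its 58-nt form, skipped to a nearer exon, was at 41.0, 50.9 and 47.4% against 22.9, 45.9 and 44.8% (adjusted p = 0.34). The 102-nt form was at 40.2, 48.5 and 45.5% against 23.9, 43.1 and 41.6% (adjusted p = 0.275). In all 3 forms siSFSWAP a was the lowest library.

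RNPS1 (ENSG00000205937.12) had the exon events with the most reads, up to a mean of 3092. Exon 2 of 8, 188 nt (chr16:2264573-2264760), was included at 67.0, 68.2 and 65.5% in siNT and 68.4, 71.1 and 66.6% in siSFSWAP, with overlap (adjusted p = 0.628). Its 242-nt form was at 65.5, 66.6 and 63.7% against 66.7, 69.6 and 64.7% (adjusted p = 0.683). The smallest p was for a 221-nt exon form with an in-frame TAG (chr16:2255585-2255805), which is not in the annotation used. It shares its donor with annotated exon 7, so reads of exon 7 can count as its inclusion. This form was at 94.1, 97.0 and 95.7% in siNT and 98.2, 97.7 and 99% in siSFSWAP. Its groups did not overlap and the change of 2.73 points did not pass (adjusted p = 0.0934).

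In PNN (ENSG00000100941.9) the 3 annotated introns tested were retained under 8% in each library. Intron 4, 108 nt (chr14:39177485-39177592), was retained at 6.33, 4.35 and 4.95% in siNT and 4.80, 5.70 and 7.39% in siSFSWAP (adjusted p = 0.918). Intron 5, with the smallest p, was at 1.29, 0.576 and 2.76% against 1.42, 1.37 and 3.86% (adjusted p = 0.679). The 112-nt form of intron 4 ends at a later acceptor inside exon 5, so reads of exon 5 can count as its inclusion. It was included at 88.6 ± 3.08% and 89.2 ± 4.00% (adjusted p = 0.97). The only exon tested, exon 5 in 3 forms of 91 to 112 nt, was above 95% in each library (smallest adjusted p = 0.616, for the 112-nt form at 99.1, 99.4 and 99.3% against 99.6, 95.6 and 98.6%). All 3 forms end at the same donor, so reads of exon 5 there can count as inclusion of each.

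BCLAF1 and THRAP3 are paralogous, act in the DNA damage response, and bind spliced mRNPs. In BCLAF1 (ENSG00000029363.17) the listed intron with most reads, 2105 nt (chr6:136258925-136261029), lies inside an annotated exon on the 3′ UTR side. It was retained at 98.9, 98 and 100% in siNT and 97.2, 97.0 and 92.3% in siSFSWAP, so splicing out of this stretch was rare, and with no overlap the change of -3.41 points did not pass (adjusted p = 0.342). A 227-nt exon with an in-frame TGA from base 75 (chr6:136273963-136274189) was included at 1.76, 2.74 and 2.06% in siNT and 1.6, 0.783 and 1.24% in siSFSWAP (adjusted p = 0.476). A 163-nt exon with a TGA from base 38, in 6 annotated transcripts and named after its values were seen, was at 4.4 ± 0.27% and 4.98 ± 1.36% (adjusted p = 0.725).

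In THRAP3 (ENSG00000054118.15) the 642-nt stretch with most intron reads (chr1:36303832-36304473) also lies inside an annotated exon and was kept at 98.2 to 100% in all 6 libraries (adjusted p = 0.641). A 114-nt intron (chr1:36293936-36294049) lies at the start of the longer intron between exons 8 and 9. Reads of the longer intron left unspliced can count as its inclusion. Reads that remove the longer intron whole are left out, 859, 314 and 217 in siNT and 498, 282 and 273 in siSFSWAP. Inclusion of the 114-nt intron was 28.7, 34.2 and 25.0% in siNT and 38.2, 11.8 and 21.0% in siSFSWAP (adjusted p = 0.855). Its SD among siSFSWAP libraries, 13.4 points, was the largest of the 34 tested introns. A 389-nt exon form, at the read limit and with GA rather than AG just before it, was at 100, 90.5 and 100% against 87.5, 62.5 and 100% (adjusted p = 0.313).

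ARGLU1, a coactivator of splicing and of nuclear receptors, is known for a detained intron that holds an alternative exon. Intron 2 of ARGLU1 (ENSG00000134884.15), 2300 nt (chr13:106557132-106559431), was retained at 50.5, 51.0 and 52.2% in siNT a, b and c. In siSFSWAP a, b and c it was retained at 58.9, 56.8 and 56.4%. All siSFSWAP libraries were above all siNT libraries, and the spread within each group was at most 1.30 points (SD). The change of 6.16 points did not pass over all introns (adjusted p = 0.147), nor without siNT a (5.79 points, adjusted p = 0.168).

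A pair of exons inside this ARGLU1 intron begin at the same acceptor and share the skipping junction. The 58-nt exon printed above was included at 1.83, 1.69 and 0% in siNT a, b and c and at 1.6, 3.06 and 3.82% in siSFSWAP a, b and c (adjusted p = 0.504). Its length is not a multiple of 3, and read in the frame of the upstream exon it leads to a stop from base 21 of the next exon. The 125-nt exon holds an in-frame TAA from base 85 and was at 0.60 ± 0.24% and 0.80 ± 0.42% (adjusted p = 0.962). In both exons the groups overlapped, and each stayed under 4% in every library.

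**Figure D4:**
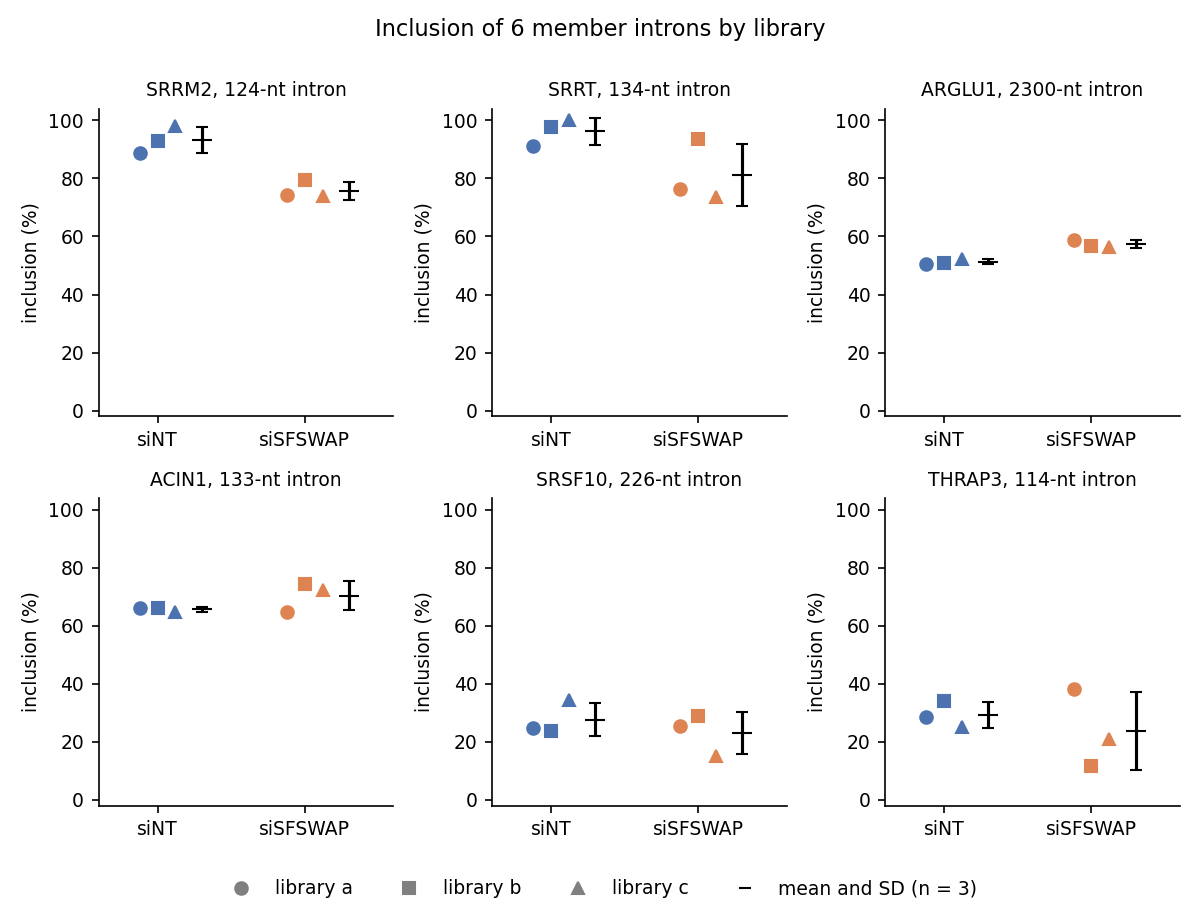
Inclusion (%) of 6 member introns in each siNT and siSFSWAP library, with the mean and SD of 3 libraries. The SRRM2 intron was lower in all siSFSWAP libraries, the ARGLU1 intron was higher in all of them, and the SRRT, ACIN1, SRSF10 and THRAP3 introns overlapped between groups.

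Sequence features were not used by the rule. Member introns had a median length of 140 nt and a median GC content of 41.8%, where all tested introns had 161 nt and 55.4%. All 34 tested member introns had GT at the 5′ end and AG at the 3′ end. Of the 136 tested exon events, 124 had AG just before and GT just after the exon. Member exon events had a median GC content of 44.7% against 50.4% over all events, and a median length of 122 nt against 121. Their siNT inclusion was lower, with a median of 48.2% against 87.8%, and 47 of 136 events were included under 5%. Of the 34 introns 28, and of the 136 exon events 49, were in GENCODE release 44, so most exon forms tested were not in that release.

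Of the 45 tested member exons included under 5% in siNT, 35 could be placed in the frame of their upstream exon and 22 of these held an in-frame stop. Among the 22, mean inclusion was higher in siSFSWAP for 15 and lower for 7, with changes of -0.976 to 4.03 points and a median of 0.0574 points. Only the 261-nt SRRM2 exon among them passed adjusted p, by the quasi-binomial test alone. Of exons at 5 to 95%, 15 of 30 with a known frame held a stop, 2 higher and 13 lower with a median change of -2.31 points. Of these, 2 passed adjusted p, the 283-nt and 289-nt forms of SRSF10. The 283, 286, 289 and 324-nt forms of SRSF10 are among the 15 and share 1 skipping junction, so they are not separate measurements. Their stops lie in intron 5, and whether it is kept was not tested. Of exons at 95% or more, 11 of 30 with a known frame held a stop, 3 higher and 8 lower with a median change of -0.345 points and 0 past adjusted p. Forms that extend or shorten an annotated exon are among them. Reads of the annotated exon can count as inclusion of such a form, so its inclusion need not be that of the stretch with the stop. Of all tested member exon events, with or without a stop, 34.0% were lower where siNT inclusion was under 5%. The share lower was 63.6% at 5 to 20%, 50% at 20 to 80%, 72.7% at 80 to 95% and 60.5% at 95 to 100%.

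The reads of the exon table, summed for each gene, gave spliced reads in CPM, and these sums depend on splicing as well as RNA amount. SRRM1 was at 296, 373 and 394 CPM in siNT a, b and c and at 244, 244 and 253 CPM in siSFSWAP a, b and c. The groups did not overlap, with siNT a nearest to siSFSWAP. The log2 change was -0.51 (SE 0.10, adjusted p = 0.00378), -0.63 without siNT a, and it passed without each library in turn. Of the 10 genes SRRM1 was the 1 that was lower and 0 were higher, where 15.6% of all 10775 genes tested were lower and 14.7% higher. The median log2 change was -0.03 over the members.

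In the other genes the spliced reads did not pass with all libraries. SRRM2 was at 1068, 1364 and 1369 CPM in siNT and 1016, 1175 and 1099 CPM in siSFSWAP, with siNT a inside the siSFSWAP range (log2 change -0.20, adjusted p = 0.13). RNPS1 was at 1063, 1305 and 1330 CPM against 1052, 1145 and 1151 CPM (log2 change -0.14, adjusted p = 0.243). Without siNT a both were lower, SRRM2 by a log2 change of -0.32 (adjusted p = 0.000569) and RNPS1 of -0.24 (adjusted p = 0.00226). ARGLU1 was at 14.3, 10.9 and 11.6 CPM against 14.1, 14.6 and 13.5 CPM (log2 change 0.20, adjusted p = 0.288). The log2 changes of SRSF10, PNN, ACIN1, BCLAF1 and THRAP3 lay between -0.09 and 0.01, and SRRT was level at 276 and 275 CPM.

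**Figure D5:**
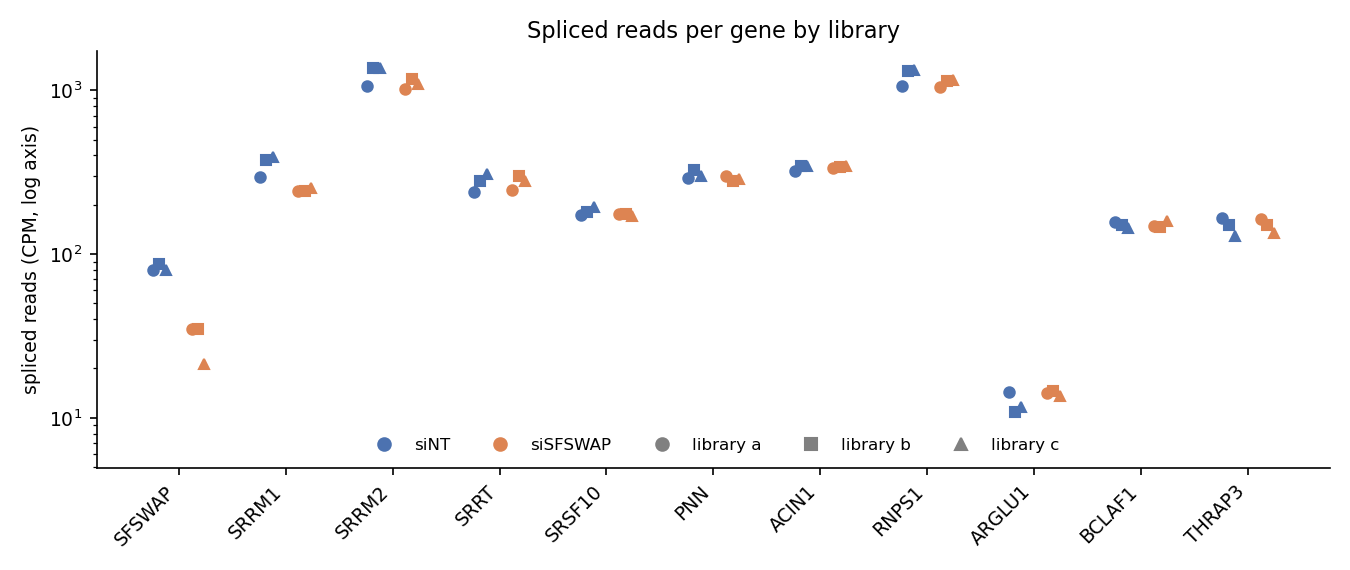
Spliced reads per gene (CPM, log axis) of SFSWAP and the 10 genes in each library, blue for siNT and orange for siSFSWAP. SFSWAP and SRRM1 were lower in all siSFSWAP libraries, and for SRRM2 and RNPS1 the siNT library a lay beside the siSFSWAP libraries.

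A list of 30 further genes for RS-domain or speckle proteins was set beside the members. Of 50 tested introns in 20 of them 0 were called by the quasi-binomial test or by limma on log2 odds, each with 6 at an unadjusted p under 0.05. Over all introns tested 1.61% were called lower and 0.148% higher. Of 250 exon events in 26 of them 1 was called, where 0.655% of all exon events were called lower and 1.44% higher. That was a 71-nt exon of ZRANB2, a zinc finger splicing factor (chr1:71065678-71065748), included at 45.4% in siNT and 68.5% in siSFSWAP (adjusted p = 9.23e-06). Limma on log2 odds called 0 of the 250, with 37 at an unadjusted p under 0.05 against 44 by the quasi-binomial test. The median change of the 50 introns was -0.556 points. Spliced reads of 6 of the 29 genes with enough reads were lower and of 2 higher, where 15.6% of all genes tested were lower and 14.7% higher.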

How the data were processed

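RNA was sequenced as single-end polyadenylated RNA libraries from 3 siNT and 3 siSFSWAP cultures. Per the labels the authors trimmed reads with cutadapt 1.9.1 and aligned them with STAR 2.7 to GRCh38. They then ran rMATS, and the deposited tables list, for each retained intron (RI) or skipped exon (SE), comma-separated inclusion and skipping junction read counts of each group, with effective lengths. The p-values, FDR and inclusion differences of the authors' own comparison were not used. Whether the counting used strand was not given in those sources. The letters a, b and c follow the order of the counts in each list. The test of each event was a quasi-binomial F test, two-sided, with the dispersion moderated with limma 3.58.1 squeezeVar and floored at 1, and p-values were adjusted by Benjamini-Hochberg over each whole table. Spliced reads per gene, 1 event per exon, were tested with limma-trend on log2(CPM + 0.5), in place of the planned count model, since the tables hold count lists. The scripts were tested on simulated data. Introns and exons were placed with GENCODE release 44 and R 4.3.3 was used. Named events were the called ones, the smallest p, the intron with most reads and up to 4 with 20 to 80% inclusion per gene and table. The 10 genes and the lists were chosen with earlier results of these data known. Intervals and p-values measure the spread between these cultures.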

Additional observations from a re-analysis of the deposited data

How the results depend on the processing

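No paired analysis was possible because the count lists carry no replicate numbers, so no replicate block could be fitted. The planned count-model tests were not run, and median-of-ratios scaling stood in for their size factors. With limma on log2 odds, calls over all introns went from 163 to 1 lower and 15 to 1 higher, over all exon events from 315 and 692 to 0 and 0, and among member exon events from 4 to 0. A mean of at least 50 reads left 107 introns lower, 7 higher and 429 exon events higher. A change of at least 0.1 called 1 member intron, 9 member exon events, 248 introns lower, 652 exon events lower and 1124 higher. Leaving out each library in turn gave 14 to 498 introns lower and 1 to 44 higher, 133 to 353 exon events lower and 163 to 1509 higher, 1 to 6 member exon events, 1 to 3 member genes, and 891 to 2590 genes lower and 897 to 2458 higher. The upper end was without siNT a in each of these counts. SFSWAP spliced reads stayed lower, by log2 changes of -1.58 to -1.23. None of the following passed the test in either direction. SRRT spliced reads had log2 changes of 0.00686 with median-of-ratios scaling and 0.00221 with all events. Without 1 library the log2 changes of spliced reads crossed 0 for SRRT (-0.0975 to 0.0841), ACIN1 (-0.0234 to 0.0344), BCLAF1 (-0.0234 to 0.0428) and THRAP3 (-0.0883 to 0.0986). The change in points did so for SRRM1 intron 3 (-0.304 to 1.41), the THRAP3 114-nt intron (-12.9 to 0.332), ACIN1 intron 17 (-0.840 to 0.00262), PNN intron 5 (-0.148 to 1.28) and the SRSF10 102-nt exon (-1.79 to 0.548). The depth of 67 to 186 reads at the median tested exon event limits what changes of a few points can be told from 0.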
